A study of Mus musculus with 18 samples.

Results

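Among the genes that differed between hearts transduced with phospholipase Cβ1 (PLCβ1) and hearts given an empty vector were 3 genes for chromatin proteins, Chd6, Banp and Cecr2. Their levels are described here together with those of the other CHD remodeller genes, Chd1, Chd2, Chd3, Chd4, Chd7, Chd8 and Chd9. These 10 genes were taken by name from the 23457 genes of the count table and the 23396 genes of the FPKM table (fragments scaled for transcript length and for library size). All 10 were among the 12281 genes with enough counts to be tested. Chd6 and Banp were chosen by their low counts in PLCβ1b hearts against blank hearts, and Cecr2 was chosen by its high counts in PLCβ1a hearts against blank hearts. Those 3 differences are therefore given as descriptions, and where a call of one is named, the call is no evidence for it.

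The hearts came from 18 male C57BL/6 mice aged 17 weeks, 6 in each of 3 groups. The mice had received adeno-associated virus of serotype 6 through the tail vein at 8 weeks of age, 9 weeks before the hearts were taken. The dose was 3e10 vector genomes per g in all groups. The vector carried FLAG-tagged PLCβ1b (rAAV6-PLCβ1b), FLAG-tagged PLCβ1a (rAAV6-PLCβ1a) or a promoter without a protein product (rAAV6-blank), so all 3 groups had been exposed to the virus and no uninjected hearts were included here. PLCβ1a and PLCβ1b are splice variants of Plcb1 that differ at the C-terminus. The labels name both ventricles as the tissue, whereas the methods of the study name the left ventricle. RNA was from whole tissue, in which fewer cells of a type and less RNA per cell cannot be told apart. Nuclear genes received 3981040 to 6912770 counts per blank heart, 3908350 to 7591560 per PLCβ1a heart and 4826150 to 6943830 per PLCβ1b heart, and the mitochondrial mt-Rnr2 alone took 53.5% to 57.5% of all counts. Plcb1 itself, measured over both splice variants, was at 0.986 ± 0.113 FPKM in hearts given blank vector, 3.86 ± 0.738 FPKM with PLCβ1a and 8.28 ± 3.38 FPKM with PLCβ1b (mean ± SD, n = 6 each, as throughout), and neither PLC group overlapped with blank. The summed library-scaled counts (CPM) of 8 cardiomyocyte markers were 52344 to 57019 in blank, 52588 to 57759 in PLCβ1a and 52095 to 54785 in PLCβ1b hearts, and those of endothelial, fibroblast, mural and macrophage markers also overlapped between all groups. Atrial myocyte markers (4 genes) summed to 36.7 to 53.5 CPM in blank, 24.2 to 61.0 CPM with PLCβ1a and 31.6 to 48.7 CPM with PLCβ1b, with a median log2 fold change of -0.36 between PLCβ1b and blank and 0.02 between PLCβ1a and blank. Of 5 erythroid markers 3 were in the count table, and 2 of these had no counts in any heart. Their sum was therefore that of the 1 tested gene, at 5.35 to 10.6 CPM in blank, 9.13 to 15.6 CPM in PLCβ1a and 6.20 to 13.3 CPM in PLCβ1b hearts. That gene gave log2 fold changes of 0.22 with PLCβ1b and 0.63 with PLCβ1a against blank. No tested marker of these 7 cell types was called in any comparison, and the part of any in the differences of Chd6, Banp and Cecr2 was not tested. Lymphocyte markers summed to under 1 CPM in every heart, and neuron and glia markers to 1.26 to 2.30 CPM.

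CHD proteins are ATP-driven chromatin remodellers with paired chromodomains, which bind histone tails, and an SNF2-like motor, which slides or exchanges nucleosomes. CHD1 and CHD2 act at transcribed genes, CHD3 and CHD4 are the motors of the NuRD deacetylase complex, and CHD6, CHD7, CHD8 and CHD9 form a further subfamily. CHD4 is required in cardiomyocytes to keep non-cardiac genes silent, and loss of human CHD7 causes CHARGE syndrome, in which heart defects are common. CHD6 has been linked to oxidative stress responses through NRF2, and CHD8 restrains p53. BANP (also called SMAR1) binds CGCG-containing elements in CpG island promoters, and CECR2 is a bromodomain protein that pairs with ISWI motors in the CERF complex.

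The genes lie on 8 chromosomes of mm10. Chd6 occupies chromosome 2 from 160946978 to 161109056 on the minus strand, with 37 exons that cover 10549 bases. Banp occupies chromosome 8 from 121950533 to 122029258 on the plus strand, with 14 exon blocks of 5455 bases from 2 annotated transcripts. Cecr2 occupies chromosome 6 from 120666421 to 120771191 on the plus strand, with 19 exons of 9213 bases. None of these 3 genes held an exon of another annotated gene inside its span. Chd2 shared 634 exon bases with 1810026B05Rik on the same strand, and reads on shared bases cannot be assigned to either gene.

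RefSeq promoter windows, from 250 bases before to 50 bases after a start site, were at hand for 4 of the 10 genes, Chd6, Chd4, Chd8 and Chd9 (build GRCm38.p6). Those for Chd1, Chd2, Chd3, Chd7, Banp and Cecr2 were not analysed here. The windows of Chd6, whose mean was lower with both PLC vectors, and of Chd4 and Chd9, whose means were not, are shown so that these promoters can be compared, 5′ to 3′ on the strand of the gene, with each match to CCAAT in capitals. The Chd6 window is chr2:161109037-161109336 on the minus strand, the Chd4 window chr6:125095913-125096212 and the Chd9 window chr8:90828585-90828884, both on the plus strand.
Chd6: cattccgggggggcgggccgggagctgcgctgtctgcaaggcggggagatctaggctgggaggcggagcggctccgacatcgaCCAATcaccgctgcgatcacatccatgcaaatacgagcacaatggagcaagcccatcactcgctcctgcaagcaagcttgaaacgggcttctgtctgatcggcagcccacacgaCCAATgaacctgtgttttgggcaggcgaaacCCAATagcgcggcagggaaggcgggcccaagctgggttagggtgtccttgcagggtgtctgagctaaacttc
Chd4: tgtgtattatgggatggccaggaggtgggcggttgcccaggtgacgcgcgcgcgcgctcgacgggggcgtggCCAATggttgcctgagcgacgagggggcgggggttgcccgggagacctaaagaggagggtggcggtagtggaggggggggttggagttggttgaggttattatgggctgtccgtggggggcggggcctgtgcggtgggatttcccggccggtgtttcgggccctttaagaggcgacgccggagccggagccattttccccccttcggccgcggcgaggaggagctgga
Chd9: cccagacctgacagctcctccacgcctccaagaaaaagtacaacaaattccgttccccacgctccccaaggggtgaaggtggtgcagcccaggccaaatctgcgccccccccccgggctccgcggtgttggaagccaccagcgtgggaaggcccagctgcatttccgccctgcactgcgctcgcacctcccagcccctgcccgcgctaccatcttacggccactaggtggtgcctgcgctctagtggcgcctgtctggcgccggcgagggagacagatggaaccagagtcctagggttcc
The Chd6 window held CCAAT 3 times, with first bases at -167, -53 and -22 from the start site. The Chd4 window held it once and the Chd9 window did not hold it on either strand. Of the windows not shown, that of Chd8 and the other of Chd4 each held 1 match on either strand, and the other of Chd9 held 0. Of 32851 windows in the table, 37.4% held CCAAT or its complement ATTGG and 3.37% held 3 or more matches. GGGCGG, searched on both strands, was found 1 time in the Chd6 window, 3 times in the Chd4 window and 1 time in the Chd9 window, beside 35.7% of all windows with a match. The windows not shown held it 3 times (Chd8), 3 times (Chd4) and 0 times (Chd9). CTCGCGA, part of the element that BANP binds, was in none of the 6 windows of these 4 genes and in 1.93% of all windows. The GC content was 61% for Chd6, 68.3% for Chd4 and 65.7% for Chd9, against a median of 52.7% over all windows. These matches describe the letters only.

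Chd4 was the most abundant of the 10 genes per length. In blank hearts it was at 14.3 ± 1.23 FPKM, followed by Chd6 (5.65 ± 0.275 FPKM), Chd2 (4.41 ± 0.242 FPKM) and Chd1 (3.08 ± 0.325 FPKM). The blank hearts' ranges of these 4 genes did not overlap. Chd1, Chd8 (3.03 ± 0.266 FPKM) and Chd9 (3.01 ± 0.113 FPKM) were not separated from one another. Chd7 (2.03 ± 0.256 FPKM) and Chd3 (1.86 ± 0.188 FPKM) overlapped, as did Chd3 and Cecr2 (1.54 ± 0.230 FPKM), and Cecr2 and Banp (1.11 ± 0.153 FPKM). CHD4 and CHD3 are alternative motors of NuRD, and Chd4 exceeded Chd3 in every heart. Chd5, a CHD gene known mainly from neural tissue and testis, received 2 to 9 counts per heart and was not tested. The 8 CHD genes among the 10 summed to 37.4 ± 1.71 FPKM in blank, 38.5 ± 1.56 FPKM in PLCβ1a and 37.2 ± 1.24 FPKM in PLCβ1b hearts, which overlapped.

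Chd6 was highest in blank hearts, intermediate in PLCβ1a hearts and lowest in PLCβ1b hearts. In blank hearts it ranged from 5.34 to 6.12 FPKM with a median of 5.61 FPKM. In PLCβ1a hearts it ranged from 4.55 to 5.47 FPKM with a median of 5.05 FPKM, and in PLCβ1b hearts from 4.10 to 4.99 FPKM with a median of 4.45 FPKM. Every PLCβ1b heart lay below every blank heart, as for 0.212% of all genes by CPM, and the PLCβ1a range met both others. From blank to PLCβ1b hearts the Chd6 level fell by 19.1% in the count model (log2 fold change -0.31, standard error 0.05), which is the difference that chose the gene.

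For Chd6 in PLCβ1a hearts, which the choice did not use, the log2 fold change against blank was -0.14 (standard error 0.05). It did not pass the threshold (edgeR's quasi-likelihood test with Benjamini-Hochberg adjustment, FDR 0.317). In CPM, which are scaled for library composition, the PLCβ1a hearts (48.6 to 50.6 CPM) all lay below the blank hearts (51.3 to 58.3 CPM), as for 0.285% of all genes, whereas the FPKM ranges overlapped. Between PLCβ1b and PLCβ1a hearts the log2 fold change was -0.17 (standard error 0.05, FDR 0.801), with 5 of 6 PLCβ1b hearts below all PLCβ1a hearts in CPM. These comparisons share hearts with the one that chose the gene, so they are not separate evidence for its direction. Chd6 received 613 to 1252 counts per heart, for which the average counting error was 3.24% in blank and 3.33% in PLCβ1a hearts, and the spread of CPM was 4.68%, 1.64% and 7.88% in the blank, PLCβ1a and PLCβ1b groups.

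Within the CHD family the share held by Chd6 was lower in both PLC groups. It made up 15.1 ± 0.707% of the summed FPKM of the 8 genes in blank hearts (14.3 to 15.8%). It made up 13.1 ± 0.375% in PLCβ1a hearts (12.7 to 13.5%) and 12.2 ± 0.794% in PLCβ1b hearts (11.2 to 13.3%). The summed FPKM hardly differed between groups, so this share restates the lower Chd6 level that chose the gene and is no further result. Chd2, the next gene in the order, lay wholly below Chd6 in blank hearts, whereas in PLCβ1b hearts Chd2 (4.60 ± 0.279 FPKM) and Chd6 (4.53 ± 0.353 FPKM) were at like levels with overlapping ranges.

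Banp was the least abundant of the 10 genes. In blank hearts it ranged from 0.895 to 1.31 FPKM with a median of 1.09 FPKM. In PLCβ1b hearts it ranged from 0.516 to 0.804 FPKM with a median of 0.626 FPKM. Every PLCβ1b heart lay below every blank heart, also in CPM, as for 0.212% of all genes by CPM. The log2 fold change between these groups was -0.70 (standard error 0.13), so that the level fell by 38.6%, which is the difference that chose the gene. PLCβ1a hearts ranged from 0.773 to 1.11 FPKM with a median of 0.917 FPKM. They fell into a lower and a higher set. Hearts 7, 13 and 21 were at 0.807, 0.773 and 0.802 FPKM, below every blank heart, and hearts 9, 11 and 14 were at 1.03, 1.11 and 1.05 FPKM, within the blank range.

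Between PLCβ1a and blank hearts as groups the difference in Banp did not pass the test (log2 fold change -0.15, standard error 0.12, FDR 0.768 by edgeR's quasi-likelihood test with Benjamini-Hochberg adjustment), and the 95% interval of the difference ran from -0.40 to 0.10. Against PLCβ1a hearts, PLCβ1b hearts gave a log2 fold change of -0.55 (standard error 0.13), which did not pass the adjustment (FDR 0.801), and 5 of 6 PLCβ1b hearts lay below all PLCβ1a hearts in CPM. The same PLCβ1b hearts chose the gene, so this is no separate evidence for its direction. Banp received 61 to 145 counts per heart, the fewest of the 10 genes. Its average counting error was 9.79%, 10.1% and 12.1% in the blank, PLCβ1a and PLCβ1b groups, beside a spread of CPM of 10.7%, 19.7% and 22.1%.

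Cecr2 differed from Chd6 and Banp in direction. It was lowest in blank hearts (1.09 to 1.70 FPKM, median 1.61 FPKM), highest in PLCβ1a hearts (1.79 to 2.58 FPKM, median 2.07 FPKM) and in between in PLCβ1b hearts (1.59 to 2.17 FPKM, median 1.79 FPKM). The PLCβ1a and blank hearts did not overlap in FPKM, for which the share of all genes was not counted. In CPM the groups overlapped, with 5 of 6 PLCβ1a hearts above all blank hearts. The log2 fold change between them was 0.43 (standard error 0.09), a level 35.1% higher, which is the difference that chose the gene. Blank heart 30, at 1.09 FPKM, was well below the other blank hearts, which were at 1.54 FPKM or above. Without it the log2 fold change was 0.36.

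In PLCβ1b hearts, which the choice of Cecr2 did not use, the log2 fold change against blank was 0.26 (standard error 0.09). It did not pass the adjustment (FDR 0.484, edgeR's quasi-likelihood test with Benjamini-Hochberg adjustment), and the 95% interval ran from 0.08 to 0.45. The PLC groups differed by -0.17 (standard error 0.09) on the log2 scale, PLCβ1b lower, with a 95% interval from -0.35 to 0.01. This difference did not pass the same test either (FDR 0.9999). These comparisons share hearts with the one that chose the gene, so they are not separate evidence for its direction. Both PLC groups were compared with the same 6 blank hearts, of which heart 30 was low. Cecr2 received 162 to 490 counts per heart.

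**Figure D1:**
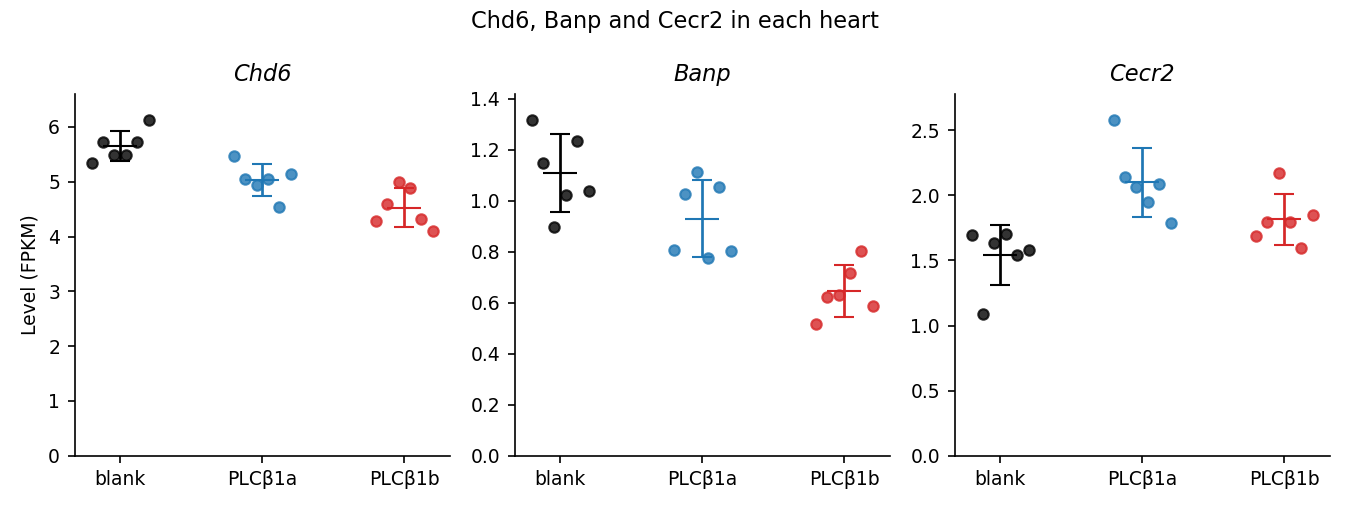
FPKM of Chd6, Banp and Cecr2 in each heart (points), with the mean and SD of 6 hearts per vector as bars. Chd6 was at 4.10 to 4.99 FPKM in PLCβ1b hearts and 5.34 to 6.12 FPKM in blank hearts, Banp formed 2 clusters of 3 hearts with PLCβ1a, and the lowest Cecr2 value, 1.09 FPKM, was that of blank heart 30.

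None of the remaining 7 CHD genes was called in any comparison. Between PLCβ1b and blank hearts, edgeR's quasi-likelihood test with Benjamini-Hochberg adjustment called 12 of 12281 genes at an FDR below 0.1 (0.0977% of genes). The 10 genes described here held 2 of the 12, Chd6 and Banp, a count that the choice of genes fixed. Both were lower, as were 0.0244% of all genes by the same test. Leaving out blank heart 34 or PLCβ1b heart 17 ended the call of Banp. None of the other 7 CHD genes was called by edgeR or by DESeq2, with FDR of 0.600 or above in edgeR, and 1 of the 7 had an unadjusted p below 0.05, as 7.41% of all genes did. That gene was Chd4, at 12.8 to 15.7 FPKM in blank hearts (median 14.5 FPKM) and 14.3 to 15.7 FPKM in PLCβ1b hearts (median 15.2 FPKM), and its log2 fold change was 0.09, with a standard error of 0.04. The log2 fold changes of the 7 ran from -0.01 for Chd7 to 0.09. Their 95% intervals, each for a single gene and not adjusted for the 7, reached from 11.1% lower (Chd7) to 15.2% higher (Chd3) than in blank hearts.

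In PLCβ1a hearts 17 genes differed from blank by this test (0.138% of genes), 0.0977% of genes being higher, and Cecr2, chosen for it, was the 1 called gene of the 10. That call was lost in 4 of 9 alternative settings and in 6 of 18 fits with a heart left out. None of the 7 CHD genes was called by either program, and 3 of the 7 had an unadjusted p below 0.05, where 8.58% of all genes did. Chd2, which acts at transcribed genes, was at 3.95 to 4.63 FPKM in blank (median 4.49 FPKM) and 4.50 to 5.27 FPKM in PLCβ1a hearts (median 4.72 FPKM). Its log2 fold change was 0.16 (standard error 0.05, FDR 0.256 by edgeR with Benjamini-Hochberg adjustment). Chd4 gave 0.12 (standard error 0.04, FDR 0.298) and was the 1 of the 7 without overlap in CPM, 83.0 to 92.0 CPM in PLCβ1a against 75.0 to 82.4 CPM in blank hearts, as were 0.309% of all genes in that direction. In FPKM the Chd4 ranges overlapped. Chd9, of the same subfamily as CHD6, gave 0.10 (standard error 0.04, FDR 0.510), and its level was 3.01 ± 0.113 FPKM in blank and 3.22 ± 0.135 FPKM in PLCβ1a hearts. Chd1, Chd7, Chd8 and Chd3 gave 0.08, 0.04, 0.03 and 0.01 on the log2 scale. All 7 values were thus above 0, with a median of 0.08 beside -0.00 for all genes. On the log2 scale the 95% intervals of the 7 ran no lower than -0.17 (Chd3) and no higher than 0.25 (Chd2). Without adjustment, those of Chd2 (0.07 to 0.25), Chd4 (0.04 to 0.20) and Chd9 (0.01 to 0.18) were wholly positive. Those of Chd1, Chd3, Chd7 and Chd8 included no difference.

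Between PLCβ1b and PLCβ1a hearts edgeR called 0 of 12281 genes (0% of genes), while DESeq2 called 1, and 543 genes (4.42%) had an unadjusted p below 0.05. The 10 genes held 2 of these, Chd6 and Banp, which had been chosen for low values in the same PLCβ1b hearts, so nothing is read from that count, and none of the 7 other CHD genes was among them. The log2 fold changes of the 7 ran from -0.09 for Chd2 to 0.03 for Chd3. Their 95% intervals, each for a single gene and not adjusted for the 7, reached from 13.8% lower (Chd7) to 14.7% higher (Chd3) in PLCβ1b than in PLCβ1a hearts. Plcb1, which both vectors carry, differed by 1.09 (standard error 0.22) on the log2 scale and was not called by edgeR either (FDR 0.801). The lack of calls is therefore no evidence that the PLC groups were alike.

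**Figure D2:**
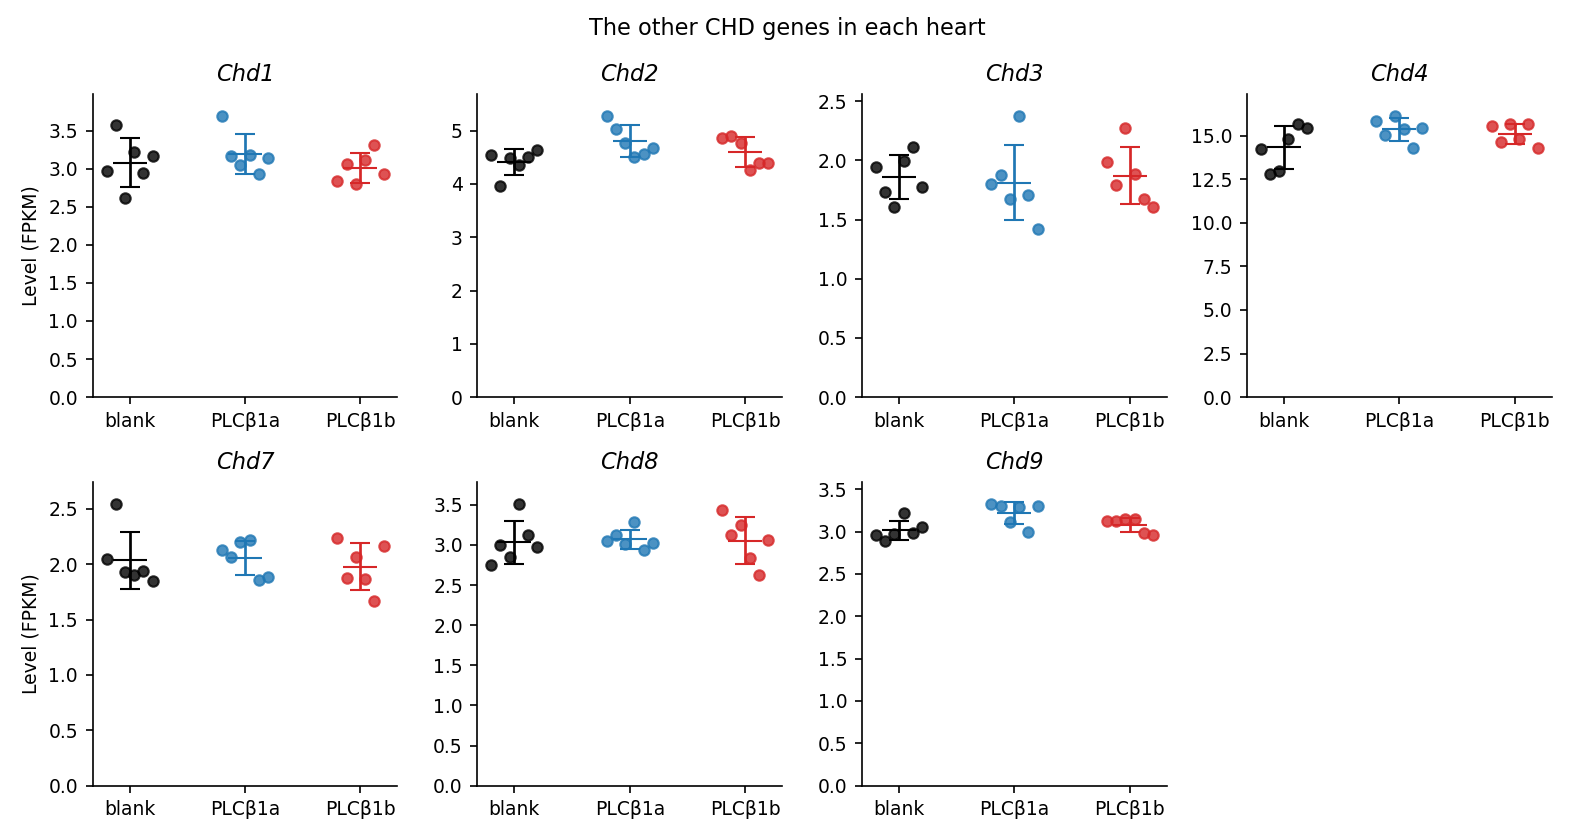
FPKM of the 7 other CHD genes in each heart (points), with the mean and SD of 6 hearts per vector as bars. The groups overlapped for each gene, Chd4 being the most abundant at 12.8 to 16.1 FPKM and a single blank heart the highest for Chd7 at 2.54 FPKM.

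**Figure D3:**
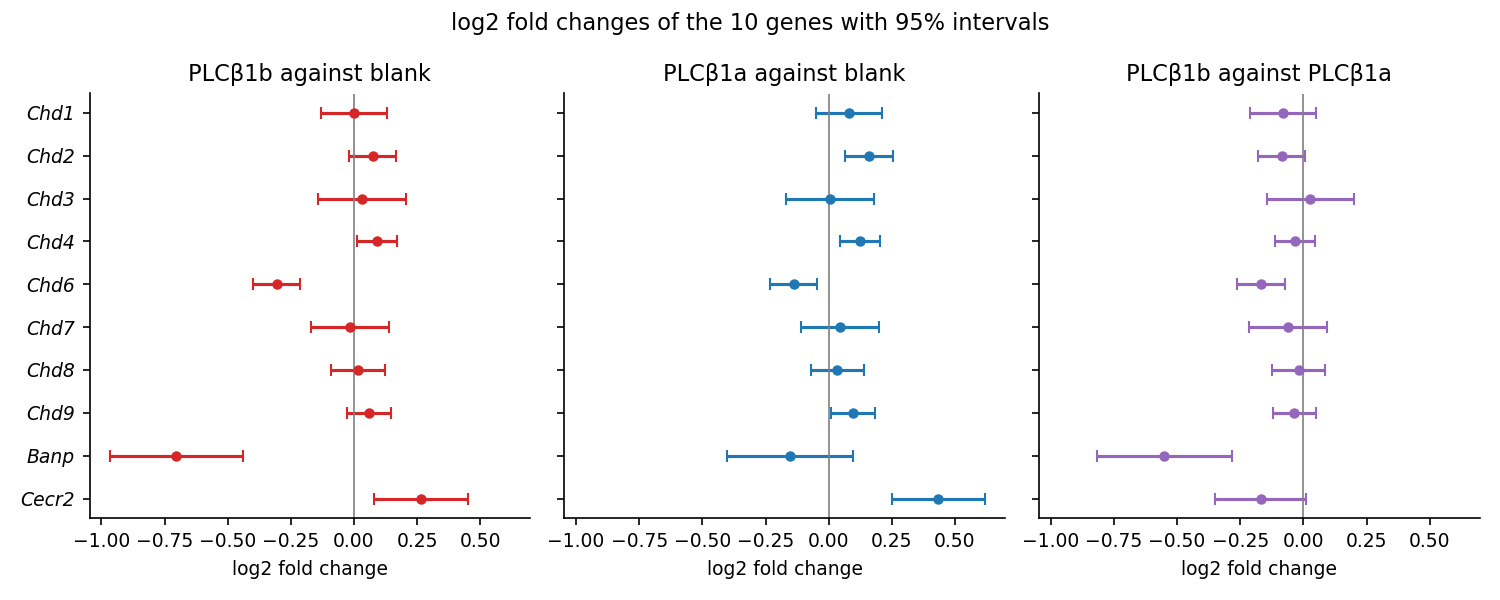
log2 fold changes of the 10 genes from the count model (points) with their 95% intervals (bars), for the 3 comparisons of vectors. Chd6 lay at -0.31 and Banp at -0.70 between PLCβ1b and blank and Cecr2 at 0.43 between PLCβ1a and blank, and these 3 differences chose the genes.

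CHD7, CHD8 and CHD9 are the closest relatives of CHD6, and their log2 fold changes between PLCβ1b and blank hearts were -0.01, 0.02 and 0.06, beside -0.31 for Chd6. Chd7 was at 2.03 ± 0.256, 2.06 ± 0.153 and 1.98 ± 0.213 FPKM in blank, PLCβ1a and PLCβ1b hearts. Chd8 was at 3.03 ± 0.266, 3.07 ± 0.121 and 3.05 ± 0.289 FPKM. Whether Chd6 differed from each of these in its response was not tested, since Chd6 was chosen for it.

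Genes of the other remodeller complexes were read in the same fit. Of 72 tested genes for NuRD, ISWI, SWI/SNF, INO80-type complexes and other SNF2-like ATPases, none was called by edgeR or DESeq2 in any comparison. Those with an unadjusted p below 0.05 numbered 5 higher and 3 lower between PLCβ1b and blank (11.1%), 8 higher and 2 lower between PLCβ1a and blank (13.9%), and 0 higher and 5 lower between the PLC groups (6.94%). Over all genes the corresponding shares were 7.41%, 8.58% and 4.42%. The median log2 fold changes of the 72 were 0.00, 0.04 and -0.03, where those of all genes were -0.00, -0.00 and 0.00.

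The NuRD partners of CHD3 and CHD4 were measured with 12 genes. The lowest p between PLCβ1b and blank was that of Mbd2, a methyl-CpG binding subunit (log2 fold change 0.14, standard error 0.06, FDR 0.599), and between PLCβ1a and blank that of its alternative Mbd3 (-0.21, standard error 0.09, FDR 0.518). Of 10 genes for ISWI complexes, which include the motors that CECR2 joins, Baz1a, a subunit of the ACF and CHRAC complexes, gave 0.30 (standard error 0.10, FDR 0.305) in PLCβ1a hearts. Baz2b, a bromodomain protein, gave 0.12 (standard error 0.05, FDR 0.599) in PLCβ1b hearts. None of these passed edgeR's test with Benjamini-Hochberg adjustment.

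Of 23 SWI/SNF genes, Dpf3, a subunit linked to heart and muscle development, had the lowest p between PLCβ1b and blank (-0.23, standard error 0.08, FDR 0.521). Arid2, the DNA-binding subunit of the PBAF form, had it between PLCβ1a and blank (0.12, standard error 0.05, FDR 0.480) and between the PLC groups (-0.17, standard error 0.05, FDR 0.971). Of 15 INO80, SRCAP and TIP60 genes, the lowest p were those of Actr6 (0.18, standard error 0.10, FDR 0.738) in PLCβ1b and Dmap1 (-0.20, standard error 0.10, FDR 0.574) in PLCβ1a hearts. Of 12 other SNF2-like genes they were those of Hells, a motor for DNA methylation (-0.50, standard error 0.24, FDR 0.670, at 0.742 CPM), and Zranb3, a replication fork motor (0.35, standard error 0.14, FDR 0.465). Each value is from edgeR's quasi-likelihood test with Benjamini-Hochberg adjustment, and none passed.

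Genes tied to the known roles of these proteins were not called either. Of 18 NRF2 genes, read because of the link with CHD6, none was called, and the lowest p between PLCβ1b and blank was that of Srxn1, which reduces oxidised peroxiredoxin (log2 fold change -0.31, standard error 0.09, FDR 0.348 by edgeR with Benjamini-Hochberg adjustment). Their unadjusted p was below 0.05 for 1 higher and 3 lower genes (22.2%, beside 7.41% of all genes), and their median was -0.05 against -0.00 for all genes. In PLCβ1a hearts the lowest p was that of Osgin1 (-0.74, standard error 0.31), a gene with 0.520 CPM on average, and the counts were again 1 higher and 3 lower (22.2%, beside 8.58% of all genes). Of 14 p53 target genes, read because of CHD8, none was called, and Sesn1, a stress-induced inhibitor of mTORC1 signalling, gave -0.22 (standard error 0.07, FDR 0.322) in PLCβ1a hearts. There 1 p53 target was higher and 2 were lower at an unadjusted p below 0.05 (21.4%, beside 8.58% of all genes), and in PLCβ1b hearts none was (beside 7.41%).

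Promoters with the BANP element were read in the same way. Of 398 tested genes whose window held CTCGCGA or its complement TCGCGAG, 1 was called higher and 0 lower in PLCβ1b hearts, and 1 higher and 0 lower in PLCβ1a hearts. Their median log2 fold changes were -0.01 and -0.00, and 6.78% and 6.28% had an unadjusted p below 0.05, beside 7.41% and 8.58% of all genes. Between the PLC groups 0 were called and 4.77% had such a p, beside 4.42% of all genes.

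**Figure D4:**
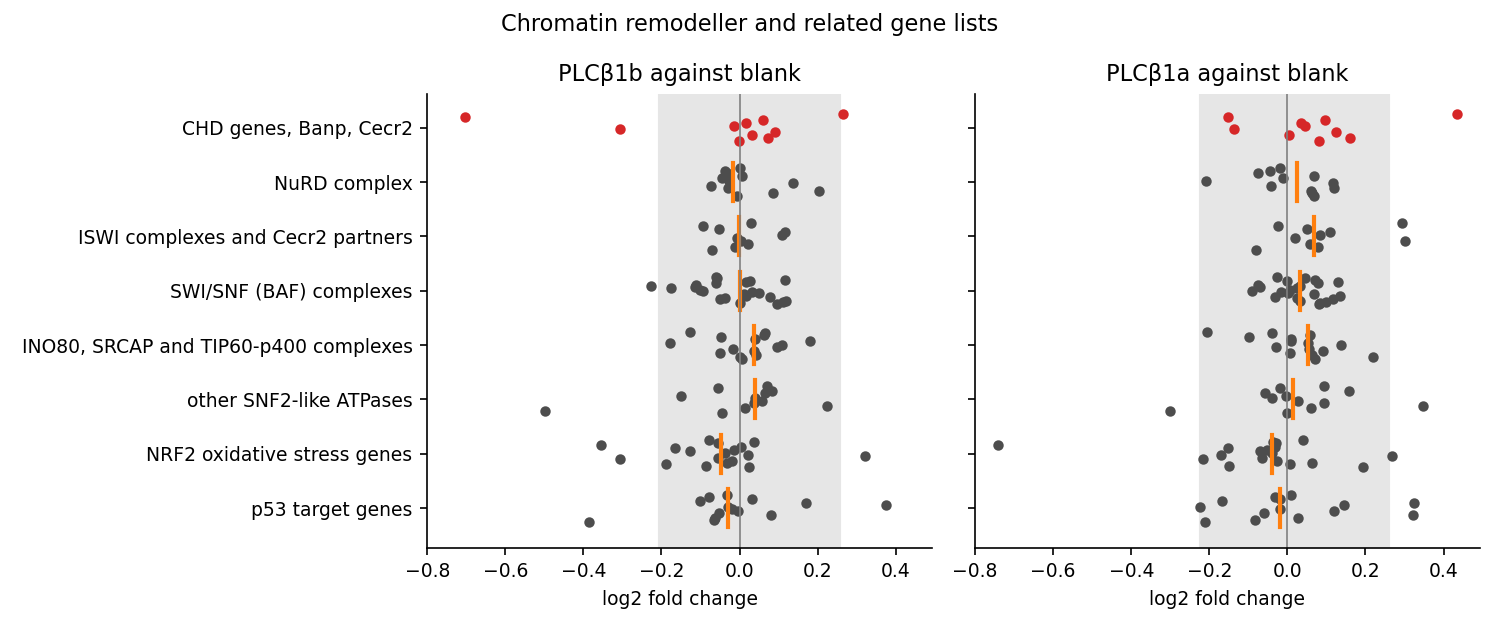
log2 fold changes of the 10 genes (red) and of the genes in 7 lists (grey), with each list's median as an orange line, in PLCβ1b and in PLCβ1a hearts against blank. The shaded band runs from the 5 to the 95 percentile of all tested genes (-0.21 to 0.26 in PLCβ1b and -0.22 to 0.26 in PLCβ1a hearts), and no gene of the 7 lists passed the test.

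The genes whose log2 CPM followed Chd6, Banp and Cecr2 most closely over the 18 hearts were read by Pearson's r, as a description in which all points share the same hearts and groups. For Chd6 the highest r were those of Zbtb16 (0.77), a zinc finger repressor, Hypk (0.77), a ribosome-associated chaperone, and Pik3r1 (0.76), the regulatory subunit of PI 3-kinase. After removal of the group means they were 0.51, 0.18 and 0.55. The lowest r were those of Plcb1 (-0.85), Lmo2 (-0.81) and Pcdh17 (-0.81). Plcb1 separates the groups by design, and within groups its r with Chd6 was -0.25. Among PLCβ1b hearts, heart 4 had the most Plcb1 (13.2 FPKM) with 4.29 FPKM of Chd6. Heart 8 had the least Plcb1 (4.16 FPKM) with 4.99 FPKM of Chd6, by FPKM the most in its group. By FPKM heart 17 had the least Chd6 (4.10 FPKM) with 7.05 FPKM of Plcb1. The order of Chd6 differed in CPM, from which r was computed. By CPM heart 10 had the most Chd6 (49.04 CPM, beside 46.7 CPM in heart 8), with 50.7 CPM of Plcb1. Heart 4 had the least Chd6 by CPM (39.94 CPM, beside 40.72 CPM in heart 17). Lmo2 is a cofactor of blood and endothelial cells, and the endothelial markers summed to 282 to 333 CPM in blank, 292 to 315 CPM in PLCβ1a and 288 to 329 CPM in PLCβ1b hearts.

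For Banp the highest r were those of Gm4636 (0.81), Elf2 (0.80), an ETS factor, and Bcl2l1 (0.78), which encodes the survival protein BCL-xL. Within groups they were 0.73, 0.79 and 0.66, values that come from the same hearts in which these genes were picked for their high r. The lowest were those of Fscn1 (-0.78), an actin bundler, Lonrf2 (-0.74) and Scarna6 (-0.73). For Cecr2 the highest r were those of Chd2 (0.83), Sh3rf2 (0.83) and Map4k5 (0.82), and within groups 0.68, 0.73 and 0.62. The lowest were those of Mrpl55 (-0.87), a mitochondrial ribosomal protein, Rassf3 (-0.79) and Nbeal2 (-0.78). Chd2 with Cecr2 was the highest of the 45 pairs among the 10 genes, whose r ran from -0.44 (Chd4 with Chd6) to 0.83 with a median of 0.06. Within groups Chd4 with Banp, at 0.02 over all hearts, had an r of 0.68, as high as that of Chd2 with Cecr2. Without PLCβ1a heart 7 and blank heart 30, the hearts farthest from the median of Chd2, the r of Chd2 with Cecr2 was 0.68, and 0.45 within groups. Chd6 and Banp, both low in PLCβ1b hearts, had an r of 0.74 over all hearts and 0.28 within groups. With Spearman's rho in place of r, 7 of the 18 genes named here were again chosen.

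**Figure D5:**
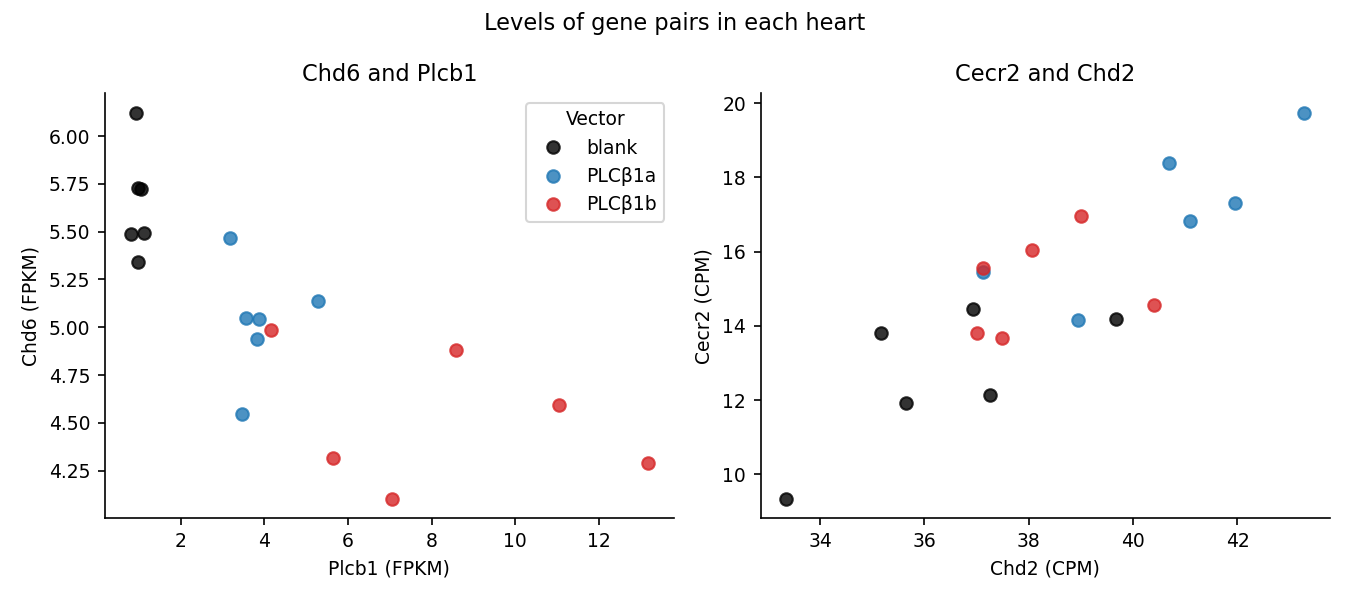
Left, Chd6 against Plcb1 in FPKM; right, Cecr2 against Chd2 in CPM, 1 point per heart, coloured by vector. The 6 blank hearts lay apart with the least Plcb1 and with Chd6 at 5.34 to 6.12 FPKM, with an r of -0.25 between these genes within groups in log2 CPM, and Cecr2 and Chd2 had an r of 0.68 within groups, or 0.45 without the lowest and the highest point.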

How the data were processed

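Total RNA from 18 hearts was depleted of ribosomal RNA and sequenced in strand-specific pairs. TopHat was used by the authors for alignment to mm10 and HTSeq for counting per gene, and the counts they deposited are raw whole numbers. The deposited FPKM values come from a program whose role is not given in the sources used here. Per the labels the submitters' notes list Cufflinks 2.1 and TopHat2 2.0.10. The 10 genes and all gene lists were chosen with earlier results of these data known.

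The test was the quasi-likelihood F test of edgeR 4.0.16 (R 4.3.3) on TMM-scaled counts, in 1 model of the 3 groups with robust estimation of the spread. Genes needed about 10 counts in at least 6 hearts and 15 counts in total. Robust estimation was chosen after seeing the data. The Benjamini-Hochberg FDR was computed over 12281 genes and a gene was called below 0.1. The 95% intervals use the model's standard errors and cover the spread between these hearts. Log2 CPM used a prior count of 2. Counting error is the Poisson error of the counts, averaged over hearts. Promoter windows and motif matches came from RefSeq sequences of GRCm38.p6 on both strands, and gene positions from the deposited annotation.

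The rule for naming covered the 10 chosen genes, the gene of lowest p of each list in each comparison, and Plcb1. It also covered the 3 genes with the highest and the 3 with the lowest r with Chd6, Banp or Cecr2. Of the genes of lowest p, Chd1l, Ercc6, Gclc and Sesn2 were not described, and none of them was called. Between the PLC groups only Arid2 was described among such genes. Mouse numbers in the labels served as replicate numbers. They were 26 to 36 in the blank, 7 to 21 in the PLCβ1a and 4 to 17 in the PLCβ1b group. The S numbers in the labels, whose meaning is not given there, also ran in the order of the groups. Differences by vector and by label order therefore cannot be told apart. Alternatives were DESeq2 1.42.0, upper-quartile scaling, no filter, only the groups compared, mitochondrial genes left out, limma 3.58.1 on log2 FPKM with 0.1 or 1 added, an FDR below 0.05, each heart left out and, added after seeing the data, no robust estimation. The test was tried on simulated counts first. Over 4784 genes with a mean of at least 10 CPM, all 18 count columns were nearest to their own FPKM column. Figures were made with Python 3.11.15, pandas 2.3.3 and matplotlib 3.10.9.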

Additional observations from a re-analysis of the deposited data

Results flagged for a closer look

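In 60 sets of 6 hearts (10 genes, 3 groups, FPKM and CPM), 3 held a heart that stood apart by Dixon's criterion, which chance meets in about 1 of 20 sets. The gap to the nearest heart was 0.684 of the range for Chd1 in PLCβ1a hearts, where heart 7 was at 3.69 FPKM and the others at 2.93 to 3.17 FPKM. It was 0.708 of the range for Chd7 in blank hearts, where heart 30 was at 2.54 FPKM and the others at 1.85 to 2.05 FPKM. The same heart gave 0.742 of the range for Cecr2, at 1.09 FPKM against 1.54 to 1.70 FPKM in the other blank hearts. None of the 3 stood apart in CPM. Without blank heart 30 the log2 fold change of Chd7 between PLCβ1b and blank was 0.08 in place of -0.01, and that of Cecr2 between PLCβ1a and blank was 0.36 in place of 0.43.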

How the results depend on the processing

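Of 810 fold changes of the 10 genes under other settings, 773 kept their direction and side of the threshold, 12 lost the call and 25 changed sign. Those at an FDR below 0.05 repeat the main fold changes, so only their calls could change. Fits that left out a heart of the group not compared kept every heart of the compared groups. Chd6 between PLCβ1b and blank passed in all 9 alternatives and with each of 18 hearts left out (log2 fold change -0.34 to -0.28). Banp passed in all 9 alternatives, with -0.36 under limma on log2(FPKM + 1), but not without blank heart 34 or PLCβ1b heart 17 (FDR up to 0.125, range -0.80 to -0.61). Cecr2 between PLCβ1a and blank was not called with only the groups compared, with limma at either pseudocount or at an FDR below 0.05 (0 of the 10 genes each), nor on leaving out blank hearts 34 and 36 or PLCβ1a hearts 7, 9, 11 and 14, each in turn (FDR up to 0.184, range 0.36 to 0.48). These differences chose the genes, and each refit used the same hearts. The passes therefore describe the fits and are no separate evidence for the differences. The causes of the lost calls were not tested.

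The genes called between PLCβ1b and blank (12) became 24 with DESeq2 and 24 without a filter, 4 and 5 with limma at 0.1 and 1, and 7 at an FDR below 0.05. The share of them that was higher went from 75% to 66.7%, 62.5%, 25%, 20% and 57.1%. Between PLCβ1a and blank (17) they became 33, 29, 6, 6 and 4 in the same order, and 10 both with only the groups compared and without robust estimation. The share that was higher went from 70.6% to 48.5%, 62.1%, 16.7%, 16.7% and 75%, and to 50% and 60%. Between the PLC groups 1 gene was called by DESeq2, limma at either pseudocount and without robust estimation, none of the 10 in any. With each heart left out these counts were 2 to 18, 3 to 19 and 0 to 1, lowest for the first without blank heart 34 or PLCβ1b heart 17, and the 10 genes held 1 to 2, 0 to 1 and 0 to 0 of them.

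The changes of sign were of uncalled values near 0. Chd1 between PLCβ1b and blank became 0.00242 with upper-quartile scaling and 3.08e-05 with only the groups compared, and Chd3 between PLCβ1a and blank -0.0488 and -0.0312 with limma. With each heart left out, between PLCβ1b and blank Chd1 ran from -0.0405 to 0.0539, Chd3 from -0.0197 to 0.0621, Chd7 from -0.0529 to 0.0791 and Chd8 from -0.00286 to 0.0548. Chd3 ran from -0.0722 to 0.0679 between PLCβ1a and blank and from -0.0361 to 0.104 between the PLC groups, where Chd8 ran from -0.037 to 0.000901. The order of the 10 genes by FPKM in blank hearts held for 8 to 10 of them.
With Spearman's rho 7 of 18 genes of like pattern were shared. No paired analysis was possible because the groups share no replicate numbers. Depth limits Banp most, at 61 to 145 counts per heart.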
